A study of Homo sapiens with 6 samples.

Results

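The enzymes of glycolysis and gluconeogenesis other than the pyruvate kinase PKM were followed through the RNA of HEK293 cells, a line derived from human embryonic kidney, with and without a knockout of MUL1, a ubiquitin ligase of the outer mitochondrial membrane. The members were chosen by name, as 41 genes of 57127 for which exon counts were summed, and not by any measured value. The 6 libraries, 3 per genotype, were labelled WT or MUL1(-/-), with no other treatment in the labels. The cells all grew in high-glucose DMEM with sodium pyruvate, fetal calf serum, glutamine, penicillin and streptomycin. The knockout was made earlier by CRISPR-Cas9, and the labels do not say which clone was sequenced or whether libraries of a genotype came from separate cultures. The p-values therefore measure the spread between these libraries, which may be technical. MUL1 RNA itself stood at 15.4, 15.2 and 19.0 CPM (counts scaled to a common library size) in the WT libraries and at 18.7, 16.7 and 19.2 CPM in the others. Its log2 fold change was 0.14 (adjusted p = 0.321), so this RNA tells nothing about which library carries the knockout, and the second group is called by its label throughout.

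Glycolysis splits glucose into pyruvate in the cytosol and yields ATP at the phosphoglycerate kinase and pyruvate kinase steps, while lactate dehydrogenase returns NAD+ by turning pyruvate into lactate. Gluconeogenesis runs the reversible steps backwards and bypasses the irreversible ones with phosphoenolpyruvate carboxykinase, fructose-1,6-bisphosphatase and glucose-6-phosphatase. Most steps are served by several isozymes that differ between tissues, and many of their genes are textbook targets of HIF-1, the oxygen-regulated transcription factor.

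The libraries held 132849479 to 149317215 exon-bin counts in WT and 127466071 to 128125459 in MUL1(-/-). Reads that span bins add to more than 1 bin, so the totals are larger than the numbers of reads. All 9 of the kidney and neuronal markers that HEK293 cells are known for were detected, of which 3 fell and 2 rose in MUL1(-/-). PAX2 (log2 fold change -1.80), LHX1 (-0.55) and VIM (-0.34) fell, and NEFM (1.06) and CDH2 (0.19) rose. Of 10 markers of blood, liver, muscle and endothelium, 7 were high enough to test and 3 rose, namely PTPRC, CKM and PECAM1, while APOB was at 0 in every library. Their summed level was 1.36 to 1.55 CPM in WT and 2.01 to 2.51 CPM in MUL1(-/-), and their part in the results was not tested. In bulk RNA, fewer cells with a transcript and less of it per cell cannot be told apart.

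Of the 41 members, 37 passed the filter on low counts. In MUL1(-/-) 5 of them rose and 15 fell at an adjusted p under 0.05 (edgeR's quasi-likelihood test, adjusted over all 25135 tested genes), and 17 did not pass the test. Over all tested genes 18.8% rose and 18.7% fell. Among the members that rose, PGAM2 and ENO3 have most or all of their counts in bins that another gene overlaps. With the further demand of an absolute log2 fold change above 1, 3 members were lower (ENO2, PCK2 and LDHC), where 3.88% of all genes were, and 0 were higher, where 4.23% were. DESeq2 and limma-voom also put 0 members above that fold, as did edgeR at an unadjusted p under 0.05. The median log2 fold change was -0.14 over the tested members and -0.01 over all tested genes. Together the members took 1.51% ± 0.0738 of the scaled counts in WT and 1.19% ± 0.0199 in MUL1(-/-) (mean ± SD, n = 3 each). Their summed levels, 14442 to 15878 CPM in WT and 11667 to 12064 CPM in MUL1(-/-), did not overlap.

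**Figure D1:**
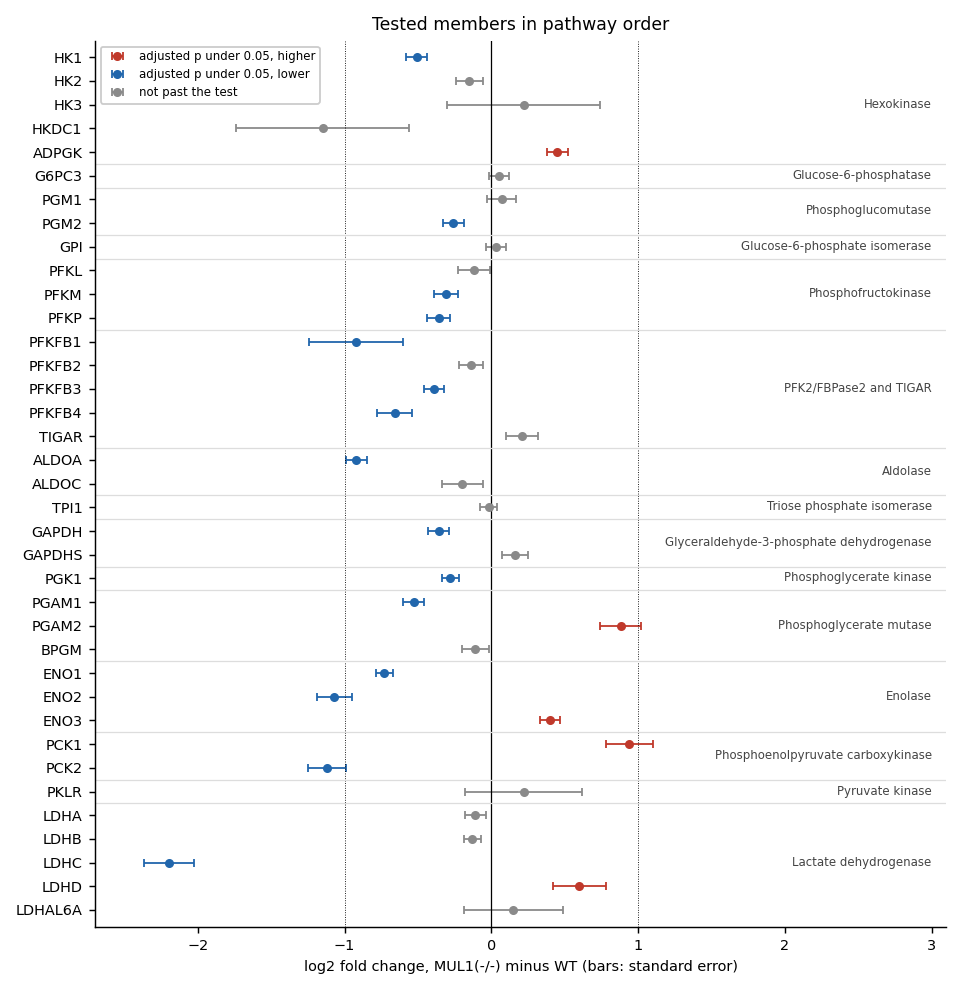
Log2 fold change of the 37 tested members in pathway order, with standard errors as bars, dotted lines at -1 and 1, and colours for the result of the test. The 15 members that fell run from hexokinase HK1 to lactate dehydrogenase LDHC, and the lowest value is that of LDHC at -2.20.

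The promoters of the members past both thresholds, and of 4 members from the list of HIF-1 targets, are shown here because these genes fell or, as with LDHA, did not pass the test beside others of the list that fell. Each stretch holds 250 bases before and 50 after a RefSeq transcription start (GRCh38.p14), on the strand of the gene. Capitals mark the letters ACGTG or GCGTG, the core that HIF-1 is known to bind, and their reverse complements.
ENO2, chr12:6914330-6914629, plus strand: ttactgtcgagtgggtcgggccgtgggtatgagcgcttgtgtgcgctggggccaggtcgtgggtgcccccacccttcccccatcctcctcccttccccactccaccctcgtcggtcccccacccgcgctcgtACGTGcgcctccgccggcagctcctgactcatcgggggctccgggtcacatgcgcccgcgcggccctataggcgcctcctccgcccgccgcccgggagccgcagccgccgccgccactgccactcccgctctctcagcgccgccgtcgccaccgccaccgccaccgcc
PCK2, chr14:24094061-24094360, plus strand: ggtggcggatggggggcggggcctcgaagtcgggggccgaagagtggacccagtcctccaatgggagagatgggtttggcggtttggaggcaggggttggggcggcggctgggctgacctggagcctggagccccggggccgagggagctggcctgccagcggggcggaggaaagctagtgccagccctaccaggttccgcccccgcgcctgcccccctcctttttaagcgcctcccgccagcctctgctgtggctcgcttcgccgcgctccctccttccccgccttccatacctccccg
LDHC, chr11:18412068-18412367, plus strand: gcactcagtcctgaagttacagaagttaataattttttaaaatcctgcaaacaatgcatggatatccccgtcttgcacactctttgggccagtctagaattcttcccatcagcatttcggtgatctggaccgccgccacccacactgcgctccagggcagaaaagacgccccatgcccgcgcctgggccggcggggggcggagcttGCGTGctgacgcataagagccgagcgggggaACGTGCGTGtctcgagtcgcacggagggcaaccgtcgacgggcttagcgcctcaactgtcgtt
ALDOA, chr16:30065510-30065809, plus strand: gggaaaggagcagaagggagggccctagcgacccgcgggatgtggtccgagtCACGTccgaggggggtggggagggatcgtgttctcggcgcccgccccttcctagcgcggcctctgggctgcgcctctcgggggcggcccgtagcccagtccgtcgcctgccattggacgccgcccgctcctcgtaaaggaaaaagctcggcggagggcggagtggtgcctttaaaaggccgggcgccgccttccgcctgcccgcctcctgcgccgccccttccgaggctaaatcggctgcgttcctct
ENO1, chr1:8878637-8878936, minus strand: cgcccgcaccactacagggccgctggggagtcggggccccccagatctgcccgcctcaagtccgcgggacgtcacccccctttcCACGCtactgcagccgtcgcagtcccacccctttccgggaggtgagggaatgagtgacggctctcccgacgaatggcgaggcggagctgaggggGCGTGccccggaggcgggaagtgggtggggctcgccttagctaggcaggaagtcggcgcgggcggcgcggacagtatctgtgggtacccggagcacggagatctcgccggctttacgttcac
PGK1, chrX:78103998-78104297, plus strand: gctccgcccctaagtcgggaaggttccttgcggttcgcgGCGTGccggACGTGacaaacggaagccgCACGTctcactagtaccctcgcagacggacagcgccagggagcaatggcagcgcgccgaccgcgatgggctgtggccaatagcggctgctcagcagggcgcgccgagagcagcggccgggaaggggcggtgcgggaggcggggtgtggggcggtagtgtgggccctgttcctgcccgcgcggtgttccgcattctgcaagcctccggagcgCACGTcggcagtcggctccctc
LDHA, chr11:18394313-18394612, plus strand: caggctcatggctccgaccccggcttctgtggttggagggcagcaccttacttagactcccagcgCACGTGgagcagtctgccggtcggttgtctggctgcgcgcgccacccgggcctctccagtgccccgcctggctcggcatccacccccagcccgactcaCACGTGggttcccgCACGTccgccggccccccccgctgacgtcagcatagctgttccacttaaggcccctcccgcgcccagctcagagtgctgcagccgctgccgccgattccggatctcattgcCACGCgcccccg
The printed LDHA promoter held 5 matches to ACGTG and 1 to GCGTG over both strands, where the palindrome CACGTG counts on each strand. LDHA has a further RefSeq promoter from 18396101 to 18396400, which held 0 and 1. PGK1 held 3 and 1, LDHC 1 and 2, ENO2 1 and 0, and ENO1 0 and 2, while PCK2 held neither. Promoters of other HIF-1 targets that fell are not printed. The RefSeq stretch of PGAM1, from 97427568, held neither, that of GAPDH, from 6535014, held 2 and 0, and that of PFKFB4 held 0 and 1. Those of PGAM1 and GAPDH lie downstream of exon bins with many counts. In WT the PGAM1 bin from 97426293 to 97426446 was at 34.6 CPM and the GAPDH bin from 6534810 to 6534861 at 188 CPM. The letters before those exons of PGAM1 and GAPDH were thus not read. RefSeq promoters were not chosen by their use in these cells. The 2 promoters of PFKFB3 held 2 and 0 and 0 and 1. HK1 has 7 promoters, none with ACGTG and only some with GCGTG. ALDOA has 3 RefSeq promoters, and the printed stretch held 1 match to ACGTG and 0 to GCGTG. Those from 30064029 and 30064247, not printed, held 1 and 0 and 2 and 0. RefSeq gave 66 promoters for 38 members, with LDHD, PCK1 and PFKFB2 not in the table. ACGTG on either strand was found in 39.4% of the 66 and in 21.4% of 35116 promoters of all genes. Among promoters of members that fell it was found in 35.3% of 34, among those of members not past the test in 54.2% of 24, and among those of members that rose in 0 of 4. Promoters of a gene can overlap, and a site in several of them counts in each. With GCGTG as well, 63.6% of the members' promoters and 48.4% of all promoters held a match. Such a match is a description of letters and not a bound site.

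Glucose enters the pathway through hexokinase, and here HK1 fell while ADPGK rose. HK1, the hexokinase of most tissues, lies on chromosome 10 from 69269984 to 69401882 of GRCh38 (ENSG00000156515). It stood at 154, 145 and 140 CPM in WT and at 107, 105 and 96.0 CPM in MUL1(-/-), with no overlap. Its log2 fold change was -0.51 ± 0.07 (SE), with an adjusted p of 4.47e-05. ADPGK, which phosphorylates glucose with ADP in place of ATP, stood at 67.2, 65.9 and 76.5 CPM in WT and at 95.1, 92.5 and 97.8 CPM in MUL1(-/-). All MUL1(-/-) libraries were above all WT libraries, and the gene rose by 0.45 ± 0.07 (adjusted p = 2.24e-04). Part of ADPGK is overlapped by ADPGK-AS1 on the other strand, with means of 3.59 CPM in WT against 5.04 CPM. In the 85.8% of ADPGK counts that lie in bins free of other genes, the log2 fold change was also 0.45.

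HK2, the insulin-responsive hexokinase of muscle and of many tumours, ran from 44.6 to 55.4 CPM in WT and from 43.7 to 48.0 CPM in MUL1(-/-). These ranges overlapped, and the log2 fold change of -0.15 did not pass the test (adjusted p = 0.207). Without WT replicate 3, the lowest WT library, it was -0.24 with an adjusted p of 0.021. HK3 and HKDC1 were at the edge of detection, at 2 to 13 and 1 to 25 counts per library, and did not pass the test. As shares of the summed CPM per kb of exon of the 5 genes, HK1 went from 54.3% ± 1.03 in WT to 41.6% ± 1.43 in MUL1(-/-). ADPGK went from 26.6% ± 2.75 to 39.5% ± 1.94 (SD, n = 3 each), and HK2 held 19.0% and 18.8%. The shares of HK1 and ADPGK did not overlap between the genotypes. With 3 libraries against 3, an exact two-sided permutation test cannot go below p = 0.1, which both reached (adjusted p = 0.133 over the 32 shares tested).

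At the glucose-6-phosphate branch most members kept overlapping ranges. G6PC3, the ubiquitous glucose-6-phosphatase, was at 64.3 to 72.9 CPM in WT and 69.2 to 71.6 CPM in MUL1(-/-) (log2 fold change 0.05, adjusted p = 0.63). GPI, which isomerises glucose-6-phosphate to fructose-6-phosphate, was at 906 to 1075 and 987 to 1044 CPM (0.03, adjusted p = 0.763). PGM1, the main phosphoglucomutase, which links the pathway to glycogen, was at 54.5 to 74.7 and 67.1 to 72.8 CPM (0.07, adjusted p = 0.63). PGM2, which acts on pentose phosphates as well, fell from 60.1, 58.7 and 57.7 CPM in WT to 47.3, 49.1 and 51.1 CPM in MUL1(-/-). Its ranges did not overlap, and its log2 fold change was -0.26 ± 0.07 (adjusted p = 0.00734). On the most counted exon bin alone PGM2 was at -0.13 with an adjusted p of 0.311.

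**Figure D2:**
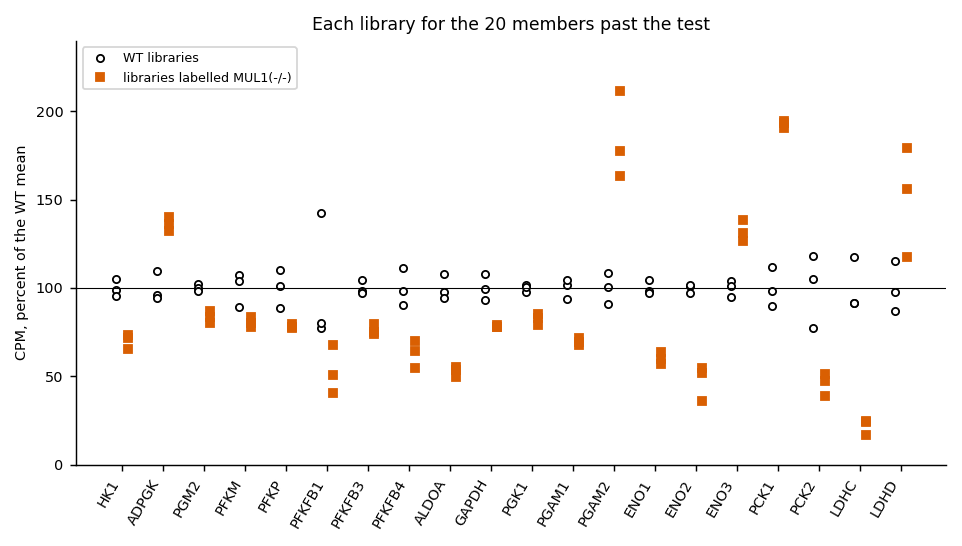
Level of each of the 20 members past the test in each library, as CPM in percent of the WT mean, with WT libraries as open circles and libraries labelled MUL1(-/-) as squares. No square overlaps the circles of its gene, and PFKFB1 and LDHD show the widest spread.

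Phosphofructokinase, the committed step of glycolysis, is built from the subunits PFKL, PFKM and PFKP. PFKP, the platelet type and the most abundant per kb here, lies on chromosome 10 from 3066333 to 3137712. It fell from 472, 433 and 378 CPM to 330, 333 and 340 CPM, a log2 fold change of -0.36 ± 0.08 (adjusted p = 0.00197). PFKM, the muscle type, fell from 252, 244 and 210 CPM to 183, 189 and 196 CPM (-0.31 ± 0.08, adjusted p = 0.00399). In both genes the lowest WT library was still above the highest MUL1(-/-) library. PFKL, the liver type, was at 167 to 230 CPM in WT and 174 to 212 CPM in MUL1(-/-), and its -0.12 did not pass the test (adjusted p = 0.418). It passed without WT replicate 3, at -0.24 with an adjusted p of 0.0425. PFKP held 62.3% ± 0.574 of the step in WT and 60.2% ± 1.28 in MUL1(-/-), and PFKL 15.5% ± 0.760 and 17.8% ± 1.39.

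Fructose-2,6-bisphosphate, the strongest activator of phosphofructokinase, is made and removed by the PFKFB enzymes. Of these 4 genes 3 fell, PFKFB1 only narrowly, where 18.7% of all tested genes fell. PFKFB3, the isozyme with the most kinase activity, lies on chromosome 10 from 6144934 to 6235545. It stood at 69.5, 65.5 and 64.7 CPM in WT and at 50.0, 53.1 and 49.2 CPM in MUL1(-/-), with no overlap (log2 fold change -0.39 ± 0.07, adjusted p = 4.12e-04). PFKFB4, first known from testis, fell from 7.59, 6.95 and 8.57 CPM to 5.41, 4.97 and 4.19 CPM (-0.66 ± 0.12, adjusted p = 5.42e-04). PFKFB1, the liver form, had 35, 72 and 36 counts in WT and 23, 18 and 30 in MUL1(-/-). Its -0.92 ± 0.32 passed the test narrowly (adjusted p = 0.0347) and rested on single libraries. Without WT replicate 2 it was -0.57 (adjusted p = 0.241), without MUL1(-/-) replicate 1 it was -0.88 (0.103), and without MUL1(-/-) replicate 2 it was -0.74 (0.135). PFKFB1 was also not past DESeq2 (adjusted p = 0.0616) or the fit with the replicate number as a block (0.0689).

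PFKFB2, the heart form, was at 13.9 to 14.9 CPM in WT and 12.8 to 13.2 CPM in MUL1(-/-). These ranges did not overlap, but the log2 fold change of -0.14 did not pass the test (adjusted p = 0.225). TIGAR, a phosphatase that also breaks down fructose-2,6-bisphosphate, was at 14.4 to 18.7 and 16.9 to 19.9 CPM (0.21, adjusted p = 0.15). Without WT replicate 3, the highest WT library, TIGAR was at 0.34 with an adjusted p of 0.0122. Only 9.19% of its counts lie in bins free of other genes, and there it was 0.11 (adjusted p = 0.651). Within the group, PFKFB3 held 64.0% ± 3.15 in WT and 57.8% ± 1.66 in MUL1(-/-), and TIGAR 20.8% ± 2.69 and 28.5% ± 2.09, without overlap.

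The fructose-1,6-bisphosphatases, which reverse the phosphofructokinase step, were nearly silent and did not pass the filter. FBP1 had 0, 0 and 0 counts in WT and 9, 11 and 2 in MUL1(-/-), and FBP2 had 1, 1 and 0 against 5, 12 and 0. With all genes kept, both passed the test (adjusted p = 1.35e-04 for FBP1 and 0.024 for FBP2). A count of 3, the least that tells a gene from absence, corresponds to 0.0212 to 0.0242 CPM in these libraries, a limit that covers counting error only.

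Aldolase, which splits fructose-1,6-bisphosphate into triose phosphates, was served almost wholly by ALDOA, which fell. ALDOA, its ubiquitous isozyme, lies on chromosome 16 from 30053090 to 30070457 (ENSG00000149925). It stood at 1479, 1337 and 1293 CPM in WT and at 734, 680 and 760 CPM in MUL1(-/-). Every WT library was far above every MUL1(-/-) library, and the log2 fold change was -0.92 ± 0.07 (adjusted p = 1.69e-07). Most ALDOA bins are also covered by the annotated genes AC093512.2, on the same strand, and AC093512.1, on the other, which stood at a mean of 22.4 CPM in WT against 13.1 CPM. In the 6.09% of ALDOA counts that lie in bins free of other genes the log2 fold change was -1.05 (adjusted p = 4.75e-08). ALDOC, the brain isozyme, ran from 7.81 to 9.53 CPM in WT and from 5.84 to 8.61 CPM in MUL1(-/-), and its -0.20 did not pass the test (adjusted p = 0.282). ALDOA held 98.7% ± 0.172 of the step in WT and 97.8% ± 0.511 in MUL1(-/-). TPI1, which interconverts the triose phosphates, was at 844 to 900 and 842 to 897 CPM, with a log2 fold change of -0.02 ± 0.06 and an adjusted p of 0.809.

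GAPDH, which couples oxidation of the triose to NADH, is the most abundant member per kb of exon and often serves as a reference gene. It stood at 3192, 2934 and 2749 CPM in WT and at 2340, 2302 and 2296 CPM in MUL1(-/-), without overlap. The log2 fold change was -0.36 ± 0.07 (adjusted p = 5.69e-04). In bins free of AC006064.4, annotated on the other strand at 638 CPM in WT and 501 CPM in MUL1(-/-), GAPDH was at -0.36 as well. GAPDHS, its sperm paralog, was at 13.6 to 14.9 and 14.8 to 17.7 CPM (0.16, adjusted p = 0.212), with 1.53% of its counts outside bins that TMEM147-AS1 overlaps. In those free bins GAPDHS was at 0.88 (adjusted p = 0.0506). PGK1, the first ATP-yielding enzyme, lies on chromosome X from 78065188 to 78129296. It fell from 634, 609 and 629 CPM to 517, 531 and 492 CPM (-0.28 ± 0.06, adjusted p = 0.00216), again with no overlap. PGK2, its testis retrogene, had 0 counts in every WT library and 1, 1 and 2 in MUL1(-/-), and was not tested.

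Phosphoglycerate mutase moves the phosphate of 3-phosphoglycerate. PGAM1 fell, while the counts placed in PGAM2, all in bins that another gene overlaps, rose. PGAM1, the brain and ubiquitous form, lies on chromosome 10 from 97426160 to 97433441. It fell from 280, 258 and 288 CPM to 191, 186 and 197 CPM (-0.53 ± 0.07, adjusted p = 2.08e-05). PGAM2, the muscle form, rose from 1.56, 1.73 and 1.87 CPM to 3.05, 2.81 and 3.64 CPM (0.88 ± 0.14, adjusted p = 1.71e-04). Neither gene had overlapping ranges. All PGAM2 bins are covered by exons of DBNL on the other strand, which itself rose from 166 to 231 CPM (0.48, adjusted p = 6.94e-04). No source used here states that the counting used strand, so reads of PGAM2 and DBNL cannot be told apart. BPGM, which makes 2,3-bisphosphoglycerate in red cells, was at 19.4 to 22.9 CPM in WT and 18.8 to 19.2 CPM in MUL1(-/-), not overlapping but not past the test (-0.11, adjusted p = 0.362). PGAM1 held 91.4% ± 0.568 of the step in WT and 86.9% ± 0.114 in MUL1(-/-), and PGAM2 1.71% ± 0.159 and 4.31% ± 0.454. These shares include the reads that cannot be told from DBNL.

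Enolase makes phosphoenolpyruvate. ENO1 and ENO2 fell, while the counts placed in ENO3, most in bins that another gene overlaps, rose. ENO1, the ubiquitous isozyme, lies on chromosome 1 from 8861002 to 8879249 (ENSG00000074800). It stood at 3233, 3045 and 3010 CPM in WT and at 1967, 1859 and 1754 CPM in MUL1(-/-). The lowest WT library was well above the highest MUL1(-/-) library, and the log2 fold change was -0.73 ± 0.06 (adjusted p = 6.54e-07). ENO2, the neuronal isozyme, lies on chromosome 12 from 6913745 to 6923698 (ENSG00000111674) and fell further. It went from 149, 143 and 150 CPM to 80.5, 76.7 and 53.1 CPM (-1.07 ± 0.12, adjusted p = 4.95e-06). MUL1(-/-) replicate 3 was the lowest library, and without any single library the value stayed between -1.17 and -0.90.

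The counts placed in ENO3, the muscle isozyme, rose from 164, 159 and 150 CPM to 207, 200 and 218 CPM (0.40 ± 0.07, adjusted p = 2.33e-04). Most of these counts lie in bins that exons of PFN1 cover on the other strand, and PFN1 rose from 446 to 593 CPM (0.41, adjusted p = 1.51e-04). Of the 43 ENO3 bins, 3 reached a mean of 0.5 CPM. The most counted, from 4948252 to 4948347 and on to 4948373, held 85.3 and 64.8 CPM in WT. They lie before both RefSeq promoters of ENO3, which begin at 4950302 and 4950869. How much of the count is ENO3 RNA was not tested. In the 4.74% of ENO3 counts free of other genes the log2 fold change was 0.38 (adjusted p = 0.0125). ENO1 held 91.7% ± 0.110 of enolase CPM per kb in WT and 87.9% ± 0.3 in MUL1(-/-), ENO2 4.03% ± 0.161 and 3.05% ± 0.518, and ENO3 4.30% ± 0.0987 and 9.10% ± 0.809. None of the 3 shares overlapped, and the share of ENO3 includes the reads that cannot be told from PFN1.

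**Figure D3:**
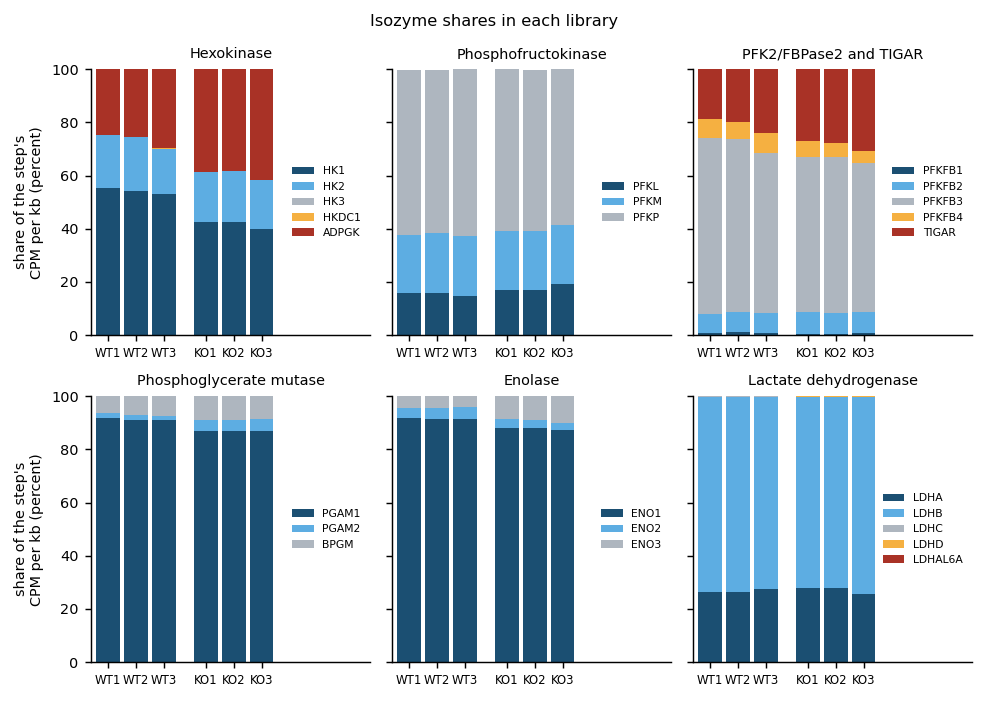
Share of each isozyme in the summed CPM per kb of exon of its step, in percent, as stacked bars for each WT library and each library labelled MUL1(-/-) (KO). HK1 is lower in every KO library (mean 54.3% in WT and 41.6% in KO) and ADPGK higher (26.6% and 39.5%), while the shares of LDHA and LDHB overlap.

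The genes of phosphoenolpyruvate carboxykinase, the gateway of gluconeogenesis, moved in opposite directions. PCK2, the mitochondrial enzyme, lies on chromosome 14 from 24094053 to 24110598 (ENSG00000100889). It stood at 44.5, 39.6 and 29.2 CPM in WT and at 17.9, 19.4 and 14.6 CPM in MUL1(-/-), and the genotypes did not overlap although the WT libraries were spread. The log2 fold change was -1.12 ± 0.13 (adjusted p = 1.22e-05). PCK1, the cytosolic enzyme of liver and kidney, lies on chromosome 20 from 57561080 to 57568112 (ENSG00000124253). It rose from 0.645, 0.806 and 0.707 CPM to 1.40, 1.37 and 1.39 CPM (0.94 ± 0.16, adjusted p = 2.99e-04). PCK2 held 98.8% ± 0.292 of the step in WT and 95.3% ± 0.688 in MUL1(-/-), and PCK1 1.19% ± 0.292 and 4.75% ± 0.688. PKLR, the pyruvate kinase of liver and red cells, was at 0.0707 to 0.103 CPM in WT and 0.0726 to 0.134 CPM in MUL1(-/-) (0.22, adjusted p = 0.708). PKM, which carries nearly all pyruvate kinase RNA in these cells and is not a member, was at 2043 to 2161 CPM in WT and 2201 to 2288 CPM in MUL1(-/-). Its ranges did not overlap, and its 0.09 did not pass the test (adjusted p = 0.244).

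At the lactate dehydrogenase step the abundant genes did not pass the test and rare ones did. LDHA, the muscle-type subunit, was at 1342, 1275 and 1325 CPM in WT and at 1259, 1283 and 1115 CPM in MUL1(-/-). The genotypes overlapped, and the log2 fold change of -0.11 ± 0.07 did not pass the test (adjusted p = 0.23). LDHB, the heart-type subunit, was at 1811, 1709 and 1656 CPM in WT and at 1564, 1600 and 1562 CPM in MUL1(-/-). It did not overlap, but its -0.13 ± 0.06 did not pass the test either (adjusted p = 0.105), and only 0.344% of its counts lie outside bins shared with AC010197.2 on the same strand. In those free bins LDHB was at -0.02 (adjusted p = 0.918). LDHA held 26.7% ± 0.815 of the step in WT and 27.0% ± 1.34 in MUL1(-/-), and LDHB 72.9% ± 0.861 and 72.8% ± 1.34. These shares depend on the annotated exon length, 6.21 kb for LDHA and 2.98 kb for LDHB. Before that division the WT means were 1314 and 1726 CPM.

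LDHC, the subunit of testis and sperm, lies on chromosome 11 from 18412307 to 18452058 (ENSG00000166796), next to LDHA. It fell from 4.13, 4.13 and 5.32 CPM to 1.11, 0.759 and 1.08 CPM, the largest change of any tested member. Its log2 fold change was -2.20 ± 0.17 (adjusted p = 1.42e-07), and without any single library it stayed between -2.28 and -2.03. LDHD, which oxidises D-lactate in mitochondria, rose from 1.40, 1.19 and 1.06 CPM to 1.90, 2.18 and 1.43 CPM (0.60 ± 0.18, adjusted p = 0.0152). The nearest libraries of the genotypes stood at 1.40 and 1.43 CPM, and the call was lost without WT replicate 2 (0.57, adjusted p = 0.055), WT replicate 3 (0.50, 0.0525) or MUL1(-/-) replicate 2 (0.46, 0.0758). LDHAL6A was at 0.134 to 0.294 CPM in WT and 0.176 to 0.331 CPM in MUL1(-/-) (0.15, adjusted p = 0.764). LDHAL6B had 6, 6 and 7 counts in WT and 15, 11 and 9 in MUL1(-/-) and was not tested.

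When the isozymes of a step were added up per kb of exon, 10 of 15 steps had no overlap between the genotypes, and all 10 were lower in MUL1(-/-). Such sums were not made for other groups of genes, so the count has no like background. Among exon bins of the whole series, 23.4% were lower and 23.5% higher without overlap. Phosphoenolpyruvate carboxykinase went from 9.12 ± 1.86 to 4.34 ± 0.586 CPM per kb, a log2 difference of -1.06 ± 0.21 (SE). Aldolase went from 226 ± 15.8 to 120 ± 6.28 CPM per kb (-0.90 ± 0.07), and enolase from 853 ± 32.1 to 535 ± 28.9 CPM per kb (-0.67 ± 0.05). Phosphoglycerate mutase followed at -0.45, glyceraldehyde-3-phosphate dehydrogenase at -0.35, phosphofructokinase at -0.30 and phosphoglycerate kinase at -0.28. The PFKFB and TIGAR group stood at -0.24, and hexokinase and lactate dehydrogenase at -0.13 each. Glucose-6-phosphatase (0.05), phosphoglucomutase (-0.08), glucose-6-phosphate isomerase (0.03), triose phosphate isomerase (-0.02) and PKLR alone (0.19) overlapped. Each of the 10 reached the smallest p that an exact permutation test of 3 against 3 allows, 0.1, or 0.15 after adjustment, so no step could pass a threshold of 0.05. Of the 32 shares of isozymes, 24 did not overlap, and in steps with 2 tested members the shares mirror each other, so that a difference counts for both. Shares within other groups of genes were not computed, so this count has no background either.

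**Figure D4:**
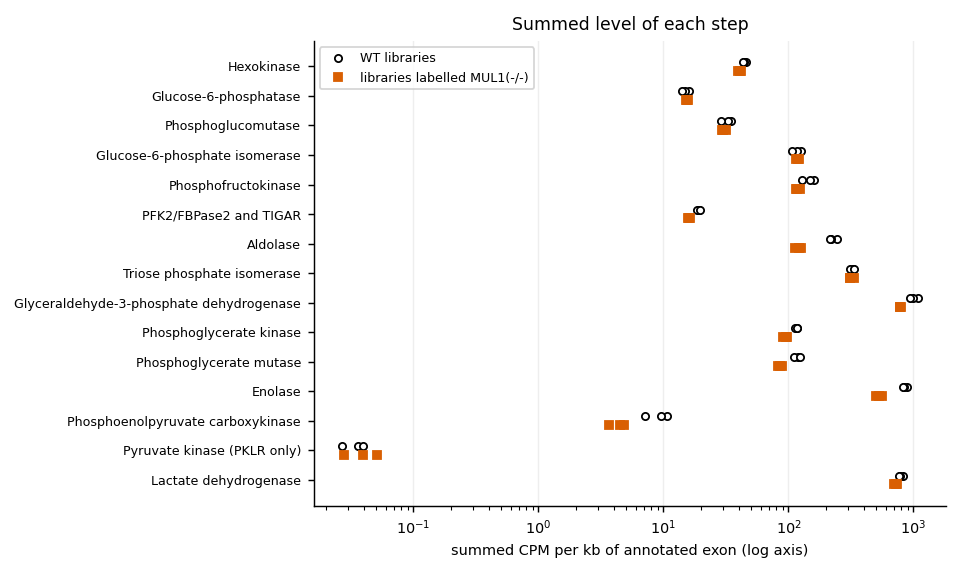
Summed CPM per kb of exon of each step in each library, on a log axis, with WT libraries as open circles and libraries labelled MUL1(-/-) as squares. Aldolase and enolase are clearly apart, at 226 against 120 and 853 against 535 CPM per kb, while triose phosphate isomerase overlaps.

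The called members were also followed along their exons. Bins are parts of the sums already tested, and reads that span bins count in each. Their agreement is a description, and they are neither replicates nor further support for a call. Of 201164 exon bins with a mean of at least 0.5 CPM in the whole series, 23.4% were lower and 23.5% higher in MUL1(-/-) without overlap. All 45 such bins of ALDOA were lower, as were all 21 of ENO1, 26 of ENO2, 20 of PCK2, 26 of HK1, 34 of PFKP, 18 of PGK1 and 6 of PGAM1. GAPDH had 23 of 33 bins lower, PFKM 45 of 53, PFKFB3 19 of 22 and PGM2 14 of 18, and the rest of their bins overlapped. ADPGK had 22 of 24 bins higher, and ENO3 and PGAM2 all 3 of 3. All PGAM2 bins are covered by exons of DBNL, and most ENO3 counts lie in bins covered by PFN1. LDHC, PCK1, LDHD and PFKFB1 had 0 bins at that level. Among members not past the test, LDHB had 15 of 17 bins lower and 1 higher, and LDHA 5 of 35 lower.

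Several members moved as the genes beside them did. For each member the median log2 fold change of the 10 tested genes on either side was taken. Genes that overlap a member were not left out, so some neighbours can share its reads. Such genes are AC093512.1 (-0.77) for ALDOA, ENO1-AS1 (-0.79) for ENO1 and PFN1 (0.41) for ENO3. HK1 at -0.51 and PGAM1 at -0.53 both had neighbours with a median of -0.43, ALDOA at -0.92 had -0.65, ENO1 at -0.73 had -0.55, and ENO3 at 0.40 had 0.38. Less the neighbours' median, HK1 was at -0.08, PGAM1 at -0.10, ENO1 at -0.19, ALDOA at -0.26 and ENO3 at 0.02. Of the 15 members that fell, 11 had a neighbour median below 0 and 7 lay within 0.3 of it. Of the 17 members not past the test, 11 also had a neighbour median below 0 and 13 lay within 0.3 of it. A neighbour median below 0 was thus not particular to the members that fell. The median of the 15 was -0.53 as measured and -0.32 less the neighbours. On chromosome 10 the members HK1, PFKP, PFKFB3 and PGAM1 fell, 4 of 5 tested there, where 18.7% of all tested genes fell. The share over all genes of chromosome 10 is not given. The neighbour medians of these 4 members were -0.43, -0.16, -0.21 and -0.43. ENO2 (-0.90 less its neighbours), PCK2 (-1.13), LDHC (-2.12), PFKFB4 (-0.70) and LDHD (0.59) stood about as far from their neighbours as from 0. PCK1 rose among neighbours with a median of -0.45, which put it at 1.39 less the neighbours. These differences carry no test of their own, and the part of the surrounding region in each change was not tested.

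**Figure D5:**
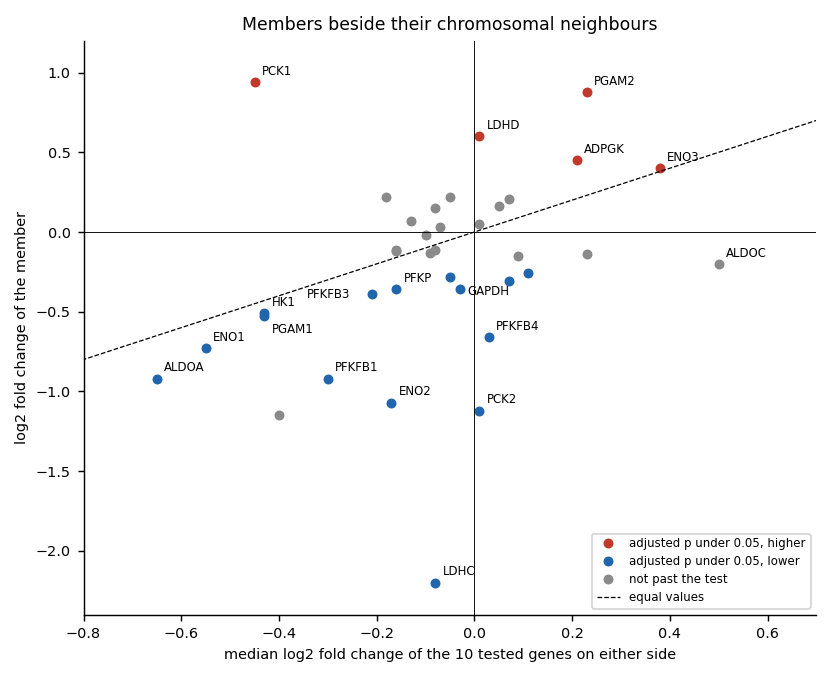
Log2 fold change of each tested member against the median of the 10 tested genes on either side of it, with a dashed line where both are equal. HK1, PGAM1, ENO1 and ENO3 lie near the line, while LDHC, PCK2, ENO2 and PCK1 lie far from it.

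Of the 14 members that are textbook HIF-1 targets, 8 fell and 0 rose, where 18.7% of all tested genes fell and 18.8% rose, and the median log2 fold change was -0.32. HK1, PFKFB3, PFKFB4, ALDOA, GAPDH, PGK1, PGAM1 and ENO1 fell, while HK2, GPI, PFKL, ALDOC, TPI1 and LDHA did not pass the test. At an unadjusted p under 0.05 edgeR also put 0 of the 14 higher, as did DESeq2 and limma-voom. Of the other 23 tested members 7 fell and 5 rose, with a median of 0.05. Less the neighbours, the medians of the lists were -0.18 and 0.04. The list was compiled by hand from textbook knowledge, and the difference between the lists was not tested.

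Of 13 further genes of glycolysis and gluconeogenesis, PKM among them, 9 were tested, 0 rose and 1 fell by edgeR, DESeq2 and limma-voom alike, and 0 were higher at an unadjusted p under 0.05. Over all tested genes 18.8% rose and 18.7% fell. ENO4, an enolase of sperm, fell from 1.62, 1.49 and 1.83 CPM to 0.806, 0.783 and 0.880 CPM (log2 fold change -1.0 ± 0.16, adjusted p = 1.46e-04), and is named here because it is the sole gene of that count. In the pentose phosphate pathway, which branches off at glucose-6-phosphate, 11 of 12 genes were tested, 4 fell and 0 rose, beside the same shares over all genes. Those that fell were PGD, RPE, TKT and PRPS2, a list named after its values were seen. PGD, which makes NADPH from 6-phosphogluconate, went from 320, 292 and 286 CPM to 160, 159 and 160 CPM (-0.90 ± 0.07, adjusted p = 9.74e-08). Its neighbours on chromosome 1 had a median log2 fold change of -0.65. By DESeq2 3 of the 11 fell and by limma-voom 4, both with 0 that rose, and 0 were higher at an unadjusted p under 0.05 by any of these tools.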

How the data were processed

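RNA from 3 WT and 3 MUL1(-/-) HEK293 samples was sequenced. The values deposited by the authors are raw counts of reads in exon bins, without normalization. The submitters' processing notes name Trimmomatic 0.36, STAR 2.5.2b and GRCh38, and the counting program is not given in the sources used here. A plan for gene counts was written before the files were seen to hold bins. Bins were therefore summed per gene, and bins under joined identifiers of overlapping genes went to the gene whose same-strand exons in GENCODE release 29 cover them. Bins that could not be placed, 4.38% of the counts, were left out.

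Genes were tested with edgeR 4.0.16 in R 4.3.3 (TMM factors 0.945 to 1.03, filterByExpr, quasi-likelihood test, Benjamini-Hochberg adjustment over all tested genes). Levels are CPM on TMM-scaled library sizes, divided by exon length in kb where genes are compared. That length takes in all annotated exons, also hardly covered ones, and reads that span bins count more than once. The size of an isozyme's share therefore depends on the annotation. DESeq2 1.42.0 and limma 3.58.1 were alternatives. Shares and step sums were compared by exact two-sided permutation tests in scipy 1.17.1. On counts simulated for 25135 genes with 200 changed by a log2 fold change of 2, edgeR recovered 200 with 2 false calls. A simulated call had to be past both thresholds, which most of the called members are not. Recovery and false calls at smaller changes, or by the adjusted p alone, were thus not tested. Between libraries of the same genotype, chi-square over degrees of freedom, a ratio of variances, was 2.95 to 10.8. They thus differed by more than sampling noise, and none was dropped as a copy of another. This does not show that they came from separate cultures. Counts of reads copied from the same molecule are not independent, so limits cover counting error only. Of 99 pseudogenes named after members, 2 reached 1 CPM in any library, so reads lost to near-identical copies remain uncertain.

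Every member is named, with full values for those past the test and for the main isozyme of a step. Other listed genes are named where past both thresholds, and PKM and MUL1 always. Some genes of these lists are not reported here and are not in their counts. The members, lists and alternatives were chosen with earlier results of these data known. Promoters came from RefSeq (GRCh38.p14).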

Additional observations from a re-analysis of the deposited data

How the results depend on the processing

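Of the 20 members past the test, 17 passed it under every alternative that tested them again. The exceptions were PGM2, PFKFB1 and LDHD, whose values stand with the results. The alternatives were library totals or RLE factors for scaling, limma-voom or DESeq2 as the test, no filter or at least 1 CPM in 3 samples, the replicate block, the most counted bin, bins free of other genes, joined identifiers kept whole, and each library left out. The fold change less the neighbours' median keeps the p-value of the unchanged test, so no call could be lost there. The count of members higher with an absolute log2 fold change above 1, which was 0, became 1 with library totals, 2 without a filter, 1 on the most counted bin, 1 less the neighbours' median and 0 to 1 with a library left out. The count lower by that measure, which was 3, became 1 with glmTreat, 2 with library totals, 2 on the most counted bin, 2 less the neighbours' median and 4 on bins free of other genes, and ran from 3 to 4 with a library left out. Counts at an adjusted p under 0.05 ran from 4 to 5 higher and from 14 to 17 lower with a library left out. These causes were not tested.

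Values that changed sign came from members not past the test. With a library left out HK3 ran from -0.23 to 0.56, PGM1 from -0.06 to 0.16, GPI from -0.04 to 0.09, TPI1 from -0.05 to 0.01 and LDHAL6A from -0.12 to 0.40, and the sign of HK3, PGM1 and GPI turned without WT replicate 3. Less the neighbours' median PFKL was at 0.04, TPI1 at 0.08 and BPGM at 0.05, and TPI1 was also at 0.05 with library totals and at 0.01 without a filter. Differences in share (MUL1(-/-) minus WT, percentage points) crossed 0 with a library left out for HK2 (-1.29 to 0.371), HK3 (-0.00417 to 0.0242), PFKM (-0.457 to 0.0622), LDHA (-0.0794 to 1.09), LDHB (-0.937 to 0.246) and LDHAL6A (-1.94e-04 to 0.00432). On the most counted bin they turned for HK3 (-0.0141), HKDC1 (0.0138) and PFKM (0.228). For the 10 steps with more than 1 tested member, all 80 recomputed sums kept their direction.

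The labels number the libraries of each genotype 1 to 3 but say nothing of shared handling. Over 15864 genes, deviations of same-numbered libraries correlated at -0.0679, 0.177 and 0.110, so the numbers were not taken as pairs. The replicate block gave 5 members higher and 14 lower, PFKFB1 being the call lost (log2 fold change -0.88, adjusted p = 0.0689). Members under about 0.1 CPM are limited by depth, since 1 count is worth 0.00707 to 0.00807 CPM. Members below the stricter filter or without free bins gave no value there.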
